A study of Mus musculus with 23 samples.

Results

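Oligodendrocyte and myelin genes were followed in RNA sequencing of the mouse hippocampus. The set was a list of 38 genes by name, 37 of which were found among the 45706 genes of the deposited table. Bmp4os, an antisense RNA named for Bmp4, could not be matched and is not reported. The members were sorted by role into precursor genes (Pdgfra and Cspg4), lineage transcription factors (Olig1, Olig2, Sox10, Nkx2-2, Nkx6-2, Myrf and Tcf7l1), genes of newly formed oligodendrocytes (Gpr17, Enpp6 and Bcas1), 15 genes of myelin structure and 10 genes of myelin lipid synthesis, metabolism and stress. The last 2 lists are called the 25 myelin members.

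All 23 samples are labelled as hippocampal RNA of female mice, with 1 library each, and 1 of them, KO library 8, goes against that tissue label by its markers. The wild-type group (WT, n = 12) carried both copies of Ins2, which encodes an insulin, and the knockout group (KO, n = 11) was Ins2-/-. The title of the series places the comparison in a study of insulin made in the brain. Age, strain, litter and the construction of the Ins2 allele are not given in the sources used here.

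Oligodendrocytes make the myelin that wraps axons in the brain. They arise from precursors that carry the PDGF receptor Pdgfra and the proteoglycan NG2 (Cspg4), pass through a newly formed stage marked by Gpr17, Enpp6 and Bcas1, and then switch on the proteins and lipid enzymes of compact myelin. Olig1, Olig2 and Sox10 act throughout the lineage, and Myrf drives the myelin genes in mature cells.

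No member passed the test for a difference between genotypes, while most varied widely between libraries. Over both genotypes, the highest library held 2.05 to 7.36 times the level of the lowest for the 25 myelin members, which moved up and down together, and Bcas1, Enpp6 and most lineage factors moved with them. Pdgfra, Cspg4 and Gpr17 varied less, by 1.40 to 1.61 times, and had r of 0.42 or less with the myelin members. In whole tissue, fewer oligodendrocytes and less RNA per oligodendrocyte cannot be told apart.

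Library totals ranged from 13792274 to 22953261 counts. Ins2 had 26 counts in 7 of 12 WT libraries and 0 in KO. KO library 8 stood apart, since its 10 hypothalamic marker genes summed to 1470 CPM (counts scaled to a common library total), where the sum elsewhere lay between 1.501 and 9.09 CPM. Its 4 neuronal markers summed to 1437 CPM, where the sum elsewhere lay between 5701 and 7867 CPM. Slc17a7, the vesicular glutamate transporter of hippocampal principal neurons, was at 5.76 CPM there and at 787 to 1382 CPM elsewhere. These values go against the tissue label of the library. Results are therefore given with and without it. WT libraries 14 and 17 and KO libraries 2, 6 and 12 held RNA of choroid plexus, the tissue in the ventricles that secretes cerebrospinal fluid, and were also left out as a check. Of the markers of Schwann cells, which make peripheral myelin, Pmp2 was at no more than 0.178 CPM in any library, while Prx reached 3.36 CPM and Ncmap 1.80 CPM, the latter in KO library 8.

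The regions before the start sites were read for 27 of the 38 members that matched the RefSeq promoter table (GRCm38.p6), using the first start listed for each gene and the 250 bases before it. The first RefSeq start is not always the GENCODE start. The regions of Aspa, Nkx2-2 and Gpr37 lay wholly inside the GENCODE gene, as did 241 bases of the Tspan2 region and 209 of the Tcf7l1 region. Sox proteins bind short sequences with an ACAA core, so ACAANG was searched on both strands, with N standing for any base. It occurred in 16 of 27 member regions (59.3%), in 12 of 20 regions of myelin members and in 36.6% of the same windows of 27025 genes. The E-box CAGCTG, a form bound by helix-loop-helix factors, occurred in 2 of 27 member regions (7.41%) and in 12.8% of all. CATNTG, another E-box form, which cannot match the same letters as CAGCTG but may share bases with an ACAANG match, occurred in 11 of 27 (40.7%) and in 35.0% of all. Median GC content was 56.4% in the member regions and 52.0% over all genes. A match describes the letters only and shows no binding. The regions of 5 members of the myelin, newly formed and precursor lists are shown 5′ to 3′ on the strand of the gene. Each ACAANG match, in either orientation, is in capitals. They are Mog (minus strand, chr17:37023399-37023648), Mag (minus strand, chr7:30914864-30915113), Gjc3 (minus strand, chr5:137963099-137963348), Enpp6 (plus strand, chr8:46986637-46986886) and Pdgfra (plus strand, chr5:75152001-75152250).
Mog: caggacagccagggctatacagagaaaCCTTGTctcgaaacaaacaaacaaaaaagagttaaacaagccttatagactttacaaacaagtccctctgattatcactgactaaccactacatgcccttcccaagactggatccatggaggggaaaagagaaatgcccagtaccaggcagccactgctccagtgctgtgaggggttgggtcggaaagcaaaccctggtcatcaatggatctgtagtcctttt
Mag: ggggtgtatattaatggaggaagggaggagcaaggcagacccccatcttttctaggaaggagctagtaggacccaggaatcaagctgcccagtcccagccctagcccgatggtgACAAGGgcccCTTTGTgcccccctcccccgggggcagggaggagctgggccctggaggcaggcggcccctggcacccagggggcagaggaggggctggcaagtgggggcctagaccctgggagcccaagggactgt
Gjc3: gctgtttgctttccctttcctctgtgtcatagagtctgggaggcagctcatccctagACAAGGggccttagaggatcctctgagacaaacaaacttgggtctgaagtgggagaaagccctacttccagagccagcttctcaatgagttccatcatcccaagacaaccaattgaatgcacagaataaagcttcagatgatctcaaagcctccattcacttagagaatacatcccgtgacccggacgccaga
Enpp6: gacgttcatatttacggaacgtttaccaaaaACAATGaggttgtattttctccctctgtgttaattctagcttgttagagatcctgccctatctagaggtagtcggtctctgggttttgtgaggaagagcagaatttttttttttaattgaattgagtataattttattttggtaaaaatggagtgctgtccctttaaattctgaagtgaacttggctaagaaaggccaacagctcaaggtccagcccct
Pdgfra: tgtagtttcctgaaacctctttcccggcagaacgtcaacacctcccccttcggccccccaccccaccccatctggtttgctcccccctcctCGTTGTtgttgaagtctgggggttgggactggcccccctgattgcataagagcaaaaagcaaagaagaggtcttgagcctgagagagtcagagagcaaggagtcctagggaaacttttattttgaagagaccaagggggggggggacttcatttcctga
The myelin genes Mog and Gjc3, the newly formed stage gene Enpp6 and the precursor gene Pdgfra each had 1 match, and Mag had 2 in opposite orientations. Mobp, a myelin protein gene, had the most among the members, with 6. Plekhb1 and Mal, which followed the myelin members as closely as Mog did, had none, so the match did not divide the members that moved together from those that did not. Aspa also had none, in a region inside its GENCODE gene.

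Levels were compared between genes as CPM per kilobase of exon. Mbp, which encodes the basic protein that compacts the myelin layers, was highest at 294 CPM per kilobase, followed by Mobp, another basic myelin protein, at 150. Qdpr, which recycles tetrahydrobiopterin, stood at 116, the iron carrier Trf at 94.6, Plekhb1 at 88.1 and the carbonic anhydrase Car2 at 88.0. The lowest were Enpp6 at 0.823, Tcf7l1 at 0.852 and the protease Klk6 at 1.11. Every one of the 37 genes found passed the filter on low counts. Reads of 14 members may be shared with overlapping genes, 12 of which have the partner on the opposite strand, among them Nkx2-2 with Nkx2-2os, Gpr17 with Lims2, Cnp with Dnajc7 and Cryab with Hspb2. Use of strand in the counting is not given in the sources used here, so the levels of these genes are uncertain to that extent.

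The genotype comparison asked whether loss of Ins2 went with a different level of any stage. In edgeR's quasi-likelihood test, 0 of 37 members passed an adjusted p of 0.05, against 2 of all 15828 genes tested (0.0126%). At an unadjusted p below 0.05 there were 0 members, against 5.74% of all genes. DESeq2 and limma voom likewise called 0 members, with 0 at an unadjusted p below 0.05 in each, where the share of all genes below it was 6.17% and 17.4%. Adjusted p in edgeR ran from 0.781 to 0.996 over the members. The 2 genotypes' values overlapped for 37 of 37 members, while 0.0126% of all genes did not overlap. In fitted value 25 members were lower and 12 higher in KO, against 49.0% of all genes lower, with a median log2 fold change of -0.026 beside 0.0031 over all genes; limma voom with quality weights had 8 lower, and leaving out WT library 15 or KO library 22 gave 15 lower. The 95% interval of the fold change stayed within 1.5-fold either way for 35 members and within 2-fold for 37. The widest belonged to Klk6, from -0.51 to 0.79 on the log2 scale.

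Without KO library 8, 15870 genes were tested, of which 2 were called (0.0126%) and 4.11% had an unadjusted p below 0.05. Of the members, 0 were called and 0 had an unadjusted p below 0.05 in edgeR, and 26 were lower in KO, against 48.4% of all genes. The median log2 fold change was -0.025, and the lowest adjusted p was 0.967. Leaving this library out moved 3 members by more than 0.1 on the log2 scale, namely Nkx2-2, Nkx6-2 and Klk6, and turned the sign of 7. None of the 7 was called in either fit.

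Of the precursor genes, Pdgfra, the receptor through which PDGF keeps precursors dividing, ranged from 45.0 through a median of 56.8 to 66.4 CPM in WT, and from 46.9 through 58.2 to 72.3 CPM in KO. KO library 8 was the highest of all 23. The log2 fold change was 0.068 (SE 0.071), and 0.041 without that library. Cspg4 ranged from 18.6 through 20.8 to 26.2 CPM in WT and from 19.4 through 21.6 to 24.8 CPM in KO, again with KO library 8 highest in its group, and a log2 fold change of 0.059 (SE 0.054). Of the members, Cspg4 had the smallest variation between libraries beyond counting noise (a biological coefficient of variation of 9.47%, against a median of 14.6% over all genes). Both genes were slightly higher in KO, within the spread between libraries. Pdgfra is also made by fibroblasts of the brain's linings, and its level followed the 5 fibroblast markers at r = 0.70 within genotypes. Those markers summed to 22.4 to 148 CPM in WT and 20.0 to 167 CPM in KO, and their part in the Pdgfra level was not tested. Cspg4, which pericytes also make, had r = 0.12 with the 5 pericyte markers.

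Among the lineage factors, Olig1 ranged from 86.5 through 107 to 142 CPM in WT and from 76.1 through 107 to 146 CPM in KO. Olig2 ranged from 19.5 through 25.9 to 36.6 CPM in WT and from 19.7 through 24.8 to 38.0 CPM in KO. Sox10, which with Olig2 sets lineage identity, ranged from 30.5 through 42.3 to 61.6 CPM in WT and from 26.7 through 43.5 to 61.1 CPM in KO. All of these had their WT maximum in library 15 and their KO maximum in library 16, and their log2 fold changes lay between -0.019 and 0.015, with SEs of 0.091 to 0.12. Myrf, the membrane-bound factor of mature cells, ranged from 49.9 through 73.3 to 88.9 CPM in WT and from 53.3 through 69.0 to 96.2 CPM in KO (log2 fold change -0.10, SE 0.10).

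The homeobox repressors behaved otherwise in one library. Nkx6-2, which acts in maturing oligodendrocytes, ranged from 6.51 through 9.997 to 19.3 CPM in WT and from 5.18 through 11.4 to 29.9 CPM in KO, where the maximum was KO library 8. Its log2 fold change, 0.28 (SE 0.21), exceeded that of every other member, and was 0.096 without that library. Nkx2-2, which takes part in the onset of differentiation, ranged from 2.81 through 3.63 to 6.65 CPM in WT and from 2.34 through 3.33 to 9.06 CPM in KO, with the maximum in the same library. The fold change turned from 0.041 (SE 0.20) to -0.15 without it. Both homeobox genes are also used in the developing ventral brain, and the hypothalamic RNA of KO library 8 given above stands beside these maxima, though its part in them was not tested. Tcf7l1, a Wnt pathway factor not limited to this lineage, ranged from 2.38 through 3.26 to 4.45 CPM in WT and from 2.73 through 3.56 to 4.16 CPM in KO. With a log2 fold change of 0.15 (SE 0.11) it had the lowest adjusted p of the members, 0.781 by edgeR.

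In the newly formed stage, Gpr17, a receptor that holds cells before maturation, ranged from 39.3 through 49.4 to 53.6 CPM in WT and from 36.4 through 47.5 to 53.6 CPM in KO (log2 fold change -0.037, SE 0.065). The maximum was the same in both genotypes to the first decimal. Enpp6, a choline phosphodiesterase of cells that have just begun to differentiate, ranged from 2.79 through 5.14 to 7.64 CPM in WT and from 3.72 through 4.81 to 8.60 CPM in KO, and KO library 8 held the lowest KO value (log2 fold change 0.0069, SE 0.18). Bcas1, found in early myelinating cells, ranged from 133 through 189 to 275 CPM in WT and from 120 through 177 to 260 CPM in KO (log2 fold change -0.068, SE 0.12).

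**Figure D1:**
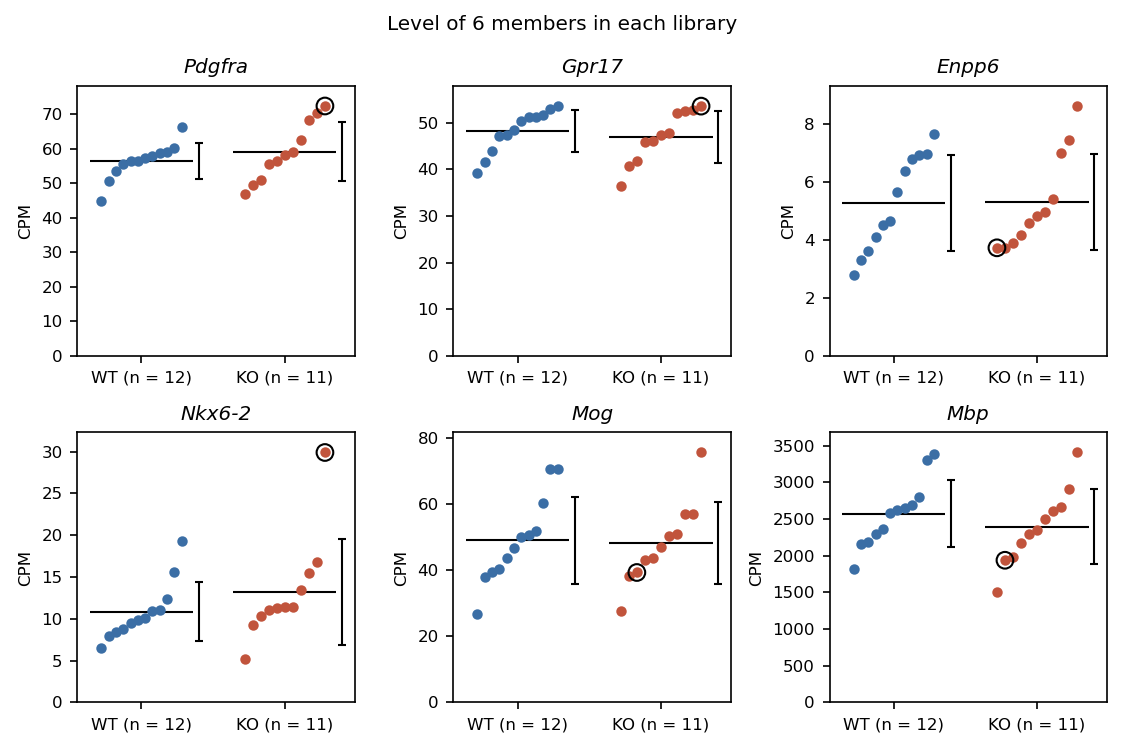
CPM of 6 members in each library (points, sorted within a genotype), with the mean (line) and SD (bar) of 12 WT and 11 KO libraries; the ring marks KO library 8. The genotypes overlap in each panel, and KO library 8 is the highest KO value for Pdgfra, Gpr17 and Nkx6-2 (29.9 CPM) and the lowest for Enpp6 (3.72 CPM).

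Among genes of myelin structure, Mbp ranged from 1819 through 2601 to 3385 CPM in WT and from 1508 through 2356 to 3407 CPM in KO. Mog, a glycoprotein on the outer face of myelin, ranged from 26.6 through 48.4 to 70.6 CPM in WT and from 27.7 through 47.1 to 75.5 CPM in KO. Mag, the glycoprotein facing the axon, ranged from 106 through 168 to 232 CPM in WT and from 101 through 165 to 253 CPM in KO. WT library 20 and KO library 22 were the lowest of their genotypes for each of these, and KO library 16 was the highest of all. The log2 fold changes were -0.10 (SE 0.12) for Mbp, -0.026 (SE 0.15) for Mog and -0.030 (SE 0.13) for Mag.

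All 15 structural genes had a fitted value below 0 in edgeR, where limma voom with quality weights put 12 of them above 0. The edgeR values ran from -0.15 for Anln, an actin-binding protein also found in dividing cells, to -0.011 for Opalin, a membrane protein of late oligodendrocytes. Their median log2 fold change was -0.054. They do not count as 15 separate observations, since the median r between 2 of them over the libraries was 0.91 (105 pairs, 0.61 to 0.99). Without KO library 8, 13 of 15 were lower. Leaving out KO library 22 or WT library 15 instead put 7 of the 15 above 0 in each fit. Anln ranged from 37.2 through 65.0 to 90.0 CPM in WT and from 35.3 through 62.9 to 81.0 CPM in KO. Opalin ranged from 12.4 through 16.1 to 27.0 CPM in WT and from 8.80 through 15.3 to 36.3 CPM in KO, and its KO maximum, library 16, was more than any WT value. The remaining structural members were Mobp, Cnp, the tight junction claudin Cldn11, Ermn, the raft protein Mal, Plekhb1, Tspan2, the connexin Gjc3, the nodal matrix link protein Hapln2 and Gpr37. Their log2 fold changes lay between -0.12 and -0.014, with SEs of 0.11 to 0.15.

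In the metabolic list 6 of 10 members were lower in KO and 4 higher, with a median log2 fold change of -0.025. With limma voom and quality weights, only Fa2h (-0.015) and Cryab (-0.037) of this list were lower. Ugt8a, Fa2h and Gal3st1 make galactosylceramide, hydroxylate its fatty acid and sulphate it to sulphatide, the main glycolipids of myelin. Ugt8a ranged from 37.9 through 60.6 to 77.1 CPM in WT and from 31.9 through 53.3 to 77.1 CPM in KO. Fa2h ranged from 20.3 through 32.1 to 44.1 CPM in WT and from 19.3 through 28.9 to 44.1 CPM in KO. Gal3st1 ranged from 6.63 through 9.21 to 12.3 CPM in WT and from 5.80 through 8.30 to 12.7 CPM in KO. Each of these 3 genes was highest in WT library 15 and KO library 16 of its genotype, and the log2 fold changes were -0.085, -0.093 and -0.040, with SEs of 0.14, 0.12 and 0.12.

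Aspa, which splits N-acetylaspartate to supply acetate, ranged from 10.7 through 18.2 to 25.9 CPM in WT and from 9.14 through 18.4 to 29.6 CPM in KO, and its log2 fold change was 0.034 (SE 0.16). Qdpr and Car2 had log2 fold changes of 0.0018 (SE 0.11) and -0.054 (SE 0.10). Cryab, a small heat shock protein that astrocytes also make, had -0.12 (SE 0.13). Its level had r = 0.66 with the 5 astrocyte markers and 0.87 with the mean of the other myelin members. The mean of all myelin members had r = 0.75 with the astrocyte markers. Klk6, a protease of mature oligodendrocytes, ranged from 0.537 through 1.33 to 3.95 CPM in WT and from 0.614 through 1.70 to 3.84 CPM in KO, on a mean of only 29.8 counts. Its log2 fold change of 0.14 (SE 0.32) became -0.029 without KO library 8, which held its KO maximum.

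Trf, Car2 and Apod are made by cells outside the lineage as well. Trf ranged from 150 through 303 to 523 CPM in WT, where library 17 was highest, and from 144 through 325 to 439 CPM in KO, where library 12 was highest (log2 fold change -0.0090, SE 0.19). Apod, a lipid carrier, ranged from 82.4 through 132 to 235 CPM in WT and from 52.0 through 152 to 230 CPM in KO, again with KO library 12 highest (log2 fold change 0.030, SE 0.21). Car2 was also highest of its WT group in library 17, at 295 CPM. WT library 17 and KO library 12 are among the 5 libraries with choroid plexus RNA. Over all libraries r with the 6 choroid plexus markers that passed the filter, of 8, was 0.49 for Trf, 0.46 for Car2 and 0.56 for Apod, against 0.080 for Mog, and Apod had r = 0.83 with the fibroblast markers. What those cells contributed to the levels was not tested.

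**Figure D2:**
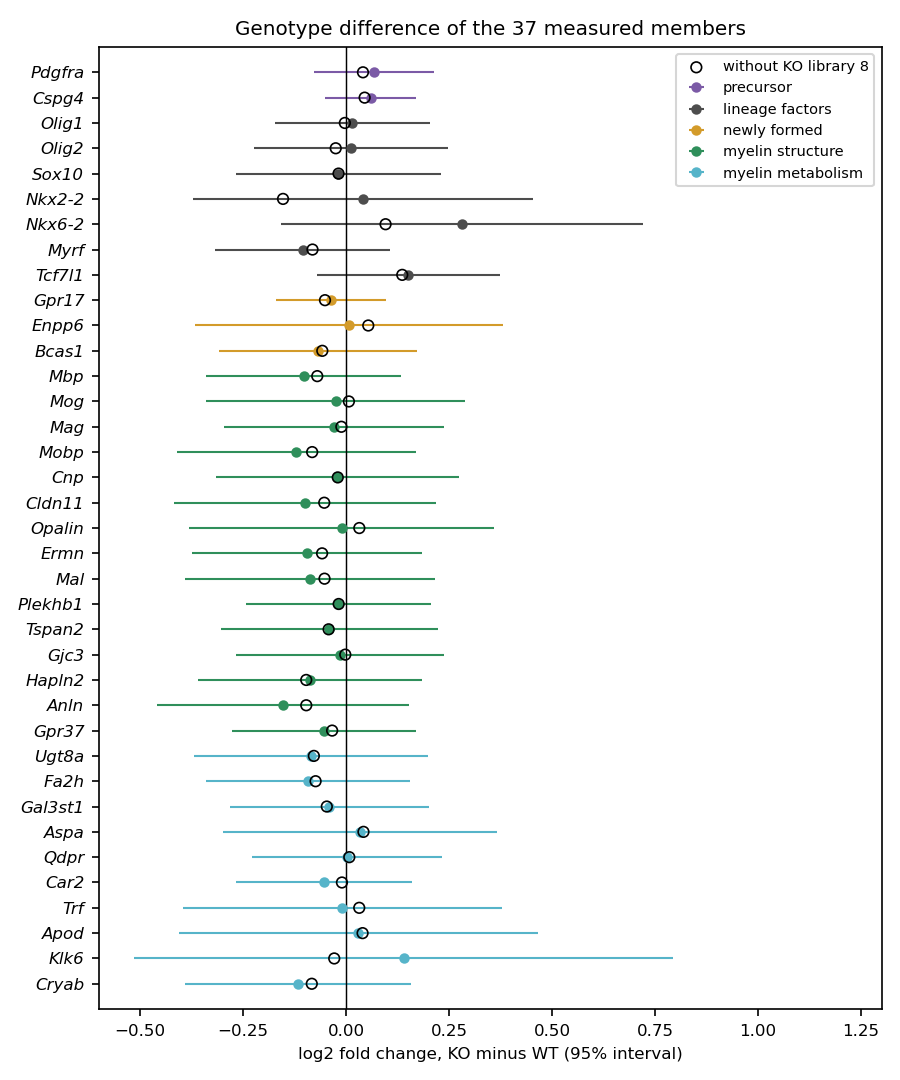
log2 fold change of KO minus WT for the 37 measured members with 95% intervals (edgeR, filled points by role), and the value without KO library 8 (open points). Every interval spans 0, and the open point is far from the filled one for Nkx6-2 (0.28 against 0.096), Nkx2-2 (0.041 against -0.15) and Klk6 (0.14 against -0.029).

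A second question was how the stages moved together from library to library. For this, log2 CPM was centred on the mean of each genotype, and stage means were taken over the members of a list in each library. Correlations over these 23 libraries are descriptions and carry no test, except for the 3 gene pairs named at the end. Before centring, the mean of the 25 myelin members spanned 1.31 on the log2 scale, or 2.48-fold, with KO library 22 and WT library 20 lowest and KO library 16 and WT library 15 highest. Each extreme thus held 1 library of each genotype. The precursor mean spanned 1.38-fold, also before centring, with an SD within genotypes of 0.11 against 0.33 for myelin. KO library 16 was the highest of 23 for 16 of the 25 myelin members, and KO library 22 was the lowest for 18 and among the lowest 4 for 25.

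Pairs of myelin members had a median r of 0.84 (300 pairs, 0.31 to 0.99, of which 178 were above 0.8). Within the structural list the median was 0.91, and within the metabolic list 0.74 (45 pairs). Set against the mean of the other myelin members, 20 of 25 had r of at least 0.8, while 123 of all 15828 genes (0.777%) reached that with the myelin mean. Plekhb1 had the highest r, 0.98, followed by Mag and Cnp at 0.97. Cnp encodes an enzyme that keeps cytoplasmic channels in myelin open. The 5 below 0.8 were Klk6 at 0.63, Apod at 0.70, Gal3st1 at 0.77, Anln at 0.79 and Car2 at 0.79. Without the 5 libraries with choroid plexus RNA, r was 0.96 in place of 0.82 for Trf, 0.85 in place of 0.70 for Apod and 0.89 in place of 0.79 for Car2, while Mog stayed at 0.96. Ugt8a, Gal3st1 and Cryab were also higher then, at 0.93 in place of 0.86, 0.84 in place of 0.77 and 0.93 in place of 0.87.

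The earlier stages were split. Bcas1 had r = 0.94 with the myelin members, Myrf 0.90, Olig1 0.83, Sox10 0.81, Olig2 0.77 and Enpp6 0.73. Nkx6-2 had 0.70 and Nkx2-2 0.52, and without KO library 8 these were 0.90 and 0.75. Gpr17, by contrast, had r = 0.12, although it marks the same stage as Enpp6 and Bcas1. Pdgfra had r = 0.42, Cspg4 -0.10 and Tcf7l1 -0.17. The precursor genes did not move together either, with r = 0.0048 between Pdgfra and Cspg4, so their mean does not describe a shared movement.

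**Figure D3:**
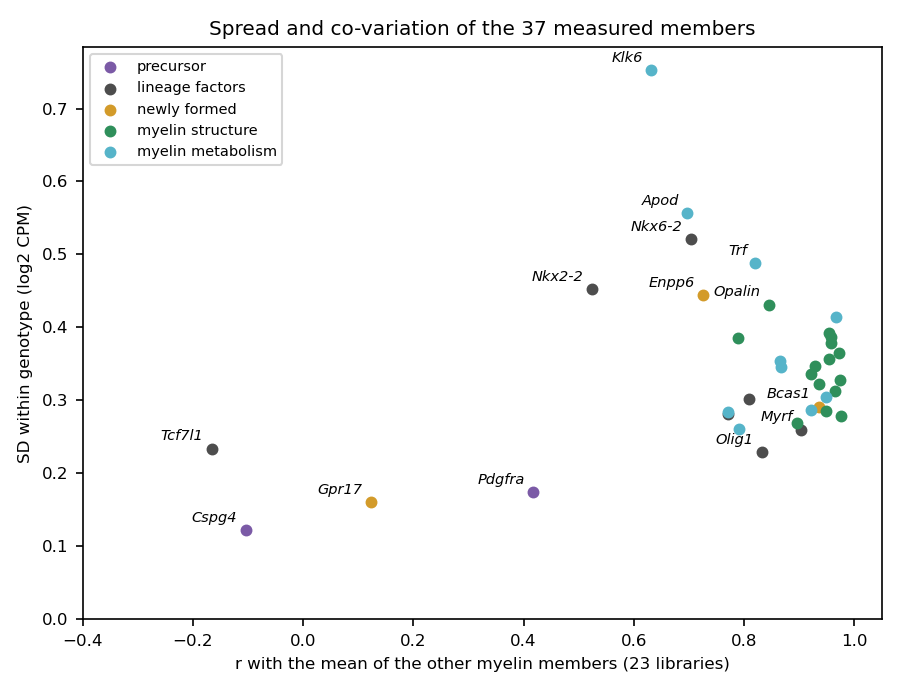
SD of log2 CPM within genotypes against r with the mean of the other myelin members over 23 libraries, for each of the 37 measured members, coloured by role. Myelin members crowd at r of 0.63 to 0.98, while Pdgfra, Cspg4, Gpr17 and Tcf7l1 lie at r of 0.42 or less, and Klk6 has the widest spread (0.75).

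By stage means, the newly formed list had r = 0.90 with myelin, also 0.90 without KO library 8, 0.92 in WT and 0.89 in KO. Without the 2 libraries farthest from the median it was 0.89. The 3 newly formed members did not all move together, with r of -0.047 to 0.60 and a median of 0.075 over their 3 pairs. Bcas1 (r = 0.94) and Enpp6 (0.73) followed the myelin members and Gpr17 (0.12) did not. The mean of the 3 therefore does not describe a shared movement of the stage. The lineage factors had r = 0.80, which became 0.91 without KO library 8 and 0.69 without WT library 15 and KO library 22. The precursor list had r = 0.28, or 0.37 without KO library 8. With the lineage factors the precursor list had r = 0.52, or 0.38 without that library, and with the newly formed list 0.16, or 0.25. With the list of further newly formed genes described below it had 0.65, or 0.60, and with the 4 neuronal markers -0.63, or -0.64. The lineage factors and the newly formed list had r = 0.69, or 0.80. KO library 8 had the highest precursor mean of 23 and ranked second for the lineage factors, but ranked 14 for the newly formed list and 17 for myelin. Its Pdgfra, Nkx2-2 and Nkx6-2 values were the highest of 23, while Mbp, Cldn11 and Anln ranked 21 and Car2 22. Other myelin members were higher in it, among them Klk6, which ranked 2, Gal3st1 7, Hapln2 8, Tspan2 9, and Cnp, Plekhb1 and Qdpr 10.

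**Figure D4:**
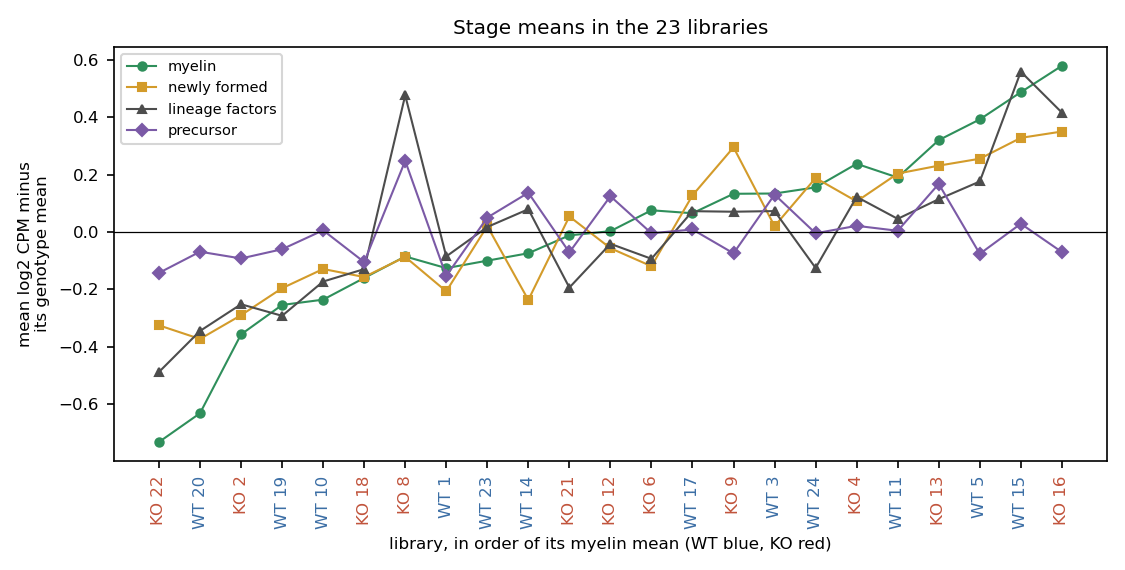
Mean log2 CPM of each stage in each of the 23 libraries after subtracting its genotype mean, with libraries ordered by their myelin mean and lines joining the libraries of 1 stage. The newly formed (r = 0.90) and lineage factor (r = 0.80) lines follow the myelin line, the precursor line (r = 0.28) is flatter, and KO library 8 is high for lineage factors and precursors but not for myelin.

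Other measures moved with the myelin mean. The library total had r = 0.55 with it, the 5 astrocyte markers 0.75 and the 4 microglial markers 0.57. Summed over each list, the astrocyte markers ranged from 1228 to 1751 CPM in WT and from 1117 to 1671 CPM in KO, and the microglial markers from 171 to 220 CPM and from 145 to 231 CPM. The 4 neuronal markers had r = -0.57 and the 5 dentate gyrus markers -0.59 without KO library 8, and -0.056 and -0.15 with it. The choroid plexus markers, whose sum ranged from 40.8 to 20010 CPM in WT and from 31.6 to 13690 CPM in KO, had r = 0.12 over all libraries and 0.80 among the 18 libraries left when the 5 were removed. After the library total was regressed out of both, the newly formed mean still had r = 0.86 with myelin, the lineage factors 0.73 and the precursors 0.30. The part of tissue make-up or dissection in these correlations was not tested.

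A permutation test within genotypes was run for 3 pairs of single genes, with 1 gene chosen from each stage. Enpp6 does not stand for the whole newly formed stage. Gpr17, of the same stage, had r of -0.19 to 0.30 with the 25 single myelin members (median 0.105). Enpp6 and Mog were correlated, with Pearson's r = 0.66 (two-sided permutation test, p = 0.00079, adjusted over 3 pairs 0.0024) and Spearman's rho = 0.70 (permutation p = 0.00049, adjusted 0.0015). Without WT library 14 and KO library 9, the 2 farthest from the median of Enpp6, r was 0.74, and without KO library 8 it was 0.65. Within WT it was 0.60 (permutation p = 0.038, adjusted 0.12) and within KO 0.74 (permutation p = 0.0073, adjusted 0.022), and the difference between genotypes was not tested. With the library total regressed out, r was 0.54 (permutation test, adjusted p = 0.035). Higher Enpp6 thus went with higher Mog across libraries.

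Pdgfra and Mog had r = 0.22 (permutation p = 0.33, adjusted 0.33) and rho = 0.16 (permutation p = 0.46, adjusted 0.46). Pdgfra and Enpp6 had r = 0.22 (permutation p = 0.31, adjusted 0.33) and rho = 0.28 (permutation p = 0.20, adjusted 0.31). Without WT library 1 and KO library 2, the farthest from the median of Pdgfra, r was 0.21 and 0.083 for these pairs in turn. Without KO library 8 it was 0.30 and 0.35, and without the 5 libraries with choroid plexus RNA 0.24 and 0.35. Neither pair passed the threshold in any setting tried. That does not show that the precursor gene and the later genes vary independently.

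**Figure D5:**
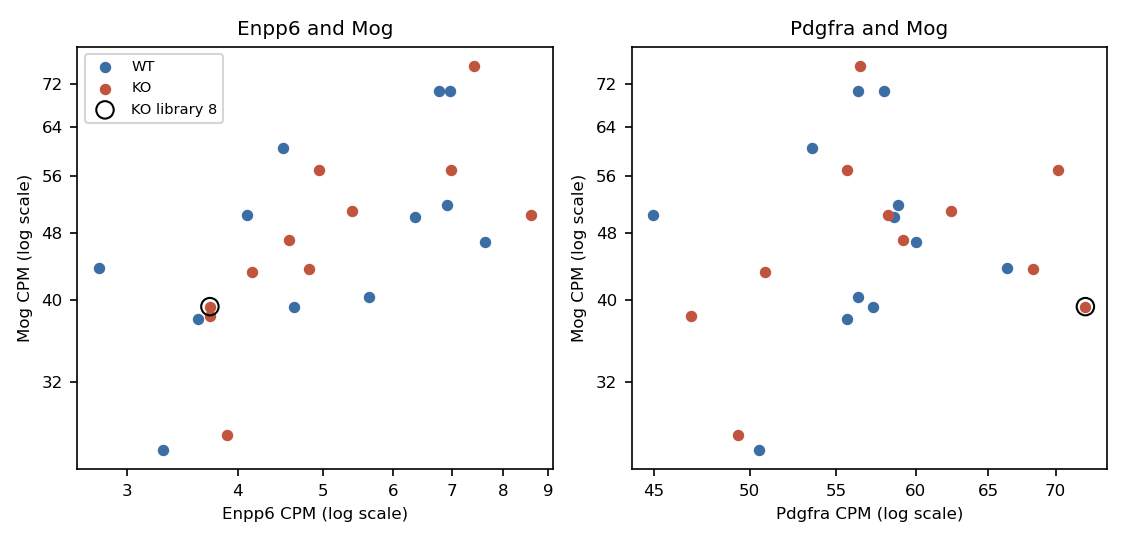
Enpp6 against Mog (left) and Pdgfra against Mog (right), in CPM on log scales, with 1 point per library (WT blue, KO red, ring for KO library 8). Mog is higher where Enpp6 is higher (r = 0.66), and the right panel shows a weaker relation (r = 0.22) with KO library 8 at the highest Pdgfra value, 72.3 CPM.

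Further genes of the lineage, in lists that hold no member, gave the same picture for genotype. Of 54 genes listed 52 were tested, and edgeR called 0, with 28 lower and 24 higher in KO and a median log2 fold change of -0.019. Of the 52, 3 had an unadjusted p below 0.05, beside 5.74% of all genes, and 2 without KO library 8, beside 4.11%. All were among the 13 tested genes of the newly formed list. DESeq2 and limma voom also called 0. These 3 were Zfp536, a transcriptional repressor, at -0.20 (SE 0.064, p = 0.0045 and adjusted p = 0.781 by edgeR), Myt1, a zinc finger factor, at -0.21 (SE 0.10), and Tcf7l2, a Wnt pathway factor. Their r with the mean of the myelin members was 0.020, -0.33 and 0.23 in turn. What cells outside the lineage contributed to their levels was not tested. Tcf7l2 ranged from 4.43 through 5.43 to 8.32 CPM in WT and from 4.02 through 6.23 to 43.9 CPM in KO. The KO maximum was library 8, without which the highest was 20.9 CPM and the log2 fold change 0.37 in place of 0.89. Tmem163, with the next smallest p among the genes of the newly formed list higher in KO, had 0.43 (SE 0.30), and -0.025 without that library.

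In the precursor list, the smallest p belonged to Tnr, which encodes tenascin-R, and Ptprz1, a phosphatase of precursors and astrocytes, among the genes lower in KO, with log2 fold changes of -0.20 (SE 0.099) and -0.030 (SE 0.065). Of those higher, Lhfpl3 had 0.24 (SE 0.18) and Sox6, a factor that holds precursors back from maturing, 0.10 (SE 0.084). Lhfpl3 stood at 56.2 CPM in KO library 8 against at most 26.8 CPM elsewhere, and its fold change was -0.0052 without that library. Cacng4 was likewise at 68.5 CPM there against at most 30.5 CPM elsewhere, a gene chosen after its values were seen.

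In the mature list, Efnb3 had -0.066 (SE 0.053) and the mucin-type glycosyltransferase Galnt6 -0.10 (SE 0.13), while the potassium channel Kcnj10, which astrocytes also make, had 0.17 (SE 0.11) and Gamt, of creatine synthesis, 0.10 (SE 0.096). Kcnj10 was at 321 CPM in KO library 8 against at most 231 CPM elsewhere. The mature list followed the myelin members at r = 0.98, and 16 of its 29 genes had r of at least 0.8. The list of further newly formed genes followed them at r = 0.52, or 0.31 without WT library 20 and KO library 22, and the list of further precursor genes at r = 0.29.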

How the data were processed

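Per the labels' protocols, a stranded mRNA kit was used for the libraries. The submitters' processing notes name bcl2fastq, STAR and mm10; the counting program, its annotation and its use of strand are not given in the sources used here. The deposited table gives the authors' estimated counts for each gene; per library, 24.6% to 27.2% of the values above 0 had decimals. Gene positions and exon lengths come from GENCODE M21 on GRCm38.

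Counts were rounded and tested over the whole table with edgeR 4.0.16 (filterByExpr, TMM, robust quasi-likelihood F test), with Benjamini-Hochberg adjustment over 15828 genes and a threshold of 0.05; the fit was tested on simulated data. CPM used TMM-scaled totals, and log2 CPM a prior count of 2. The 3 gene pairs were tested with 100000 resamples within genotypes (scipy 1.17.1). The labels name no batch and do not say outright that each library is a separate animal, so p-values measure the spread between these samples.

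As alternatives, the scaling was changed to RLE, the tool to DESeq2 1.42.0 or to voom in limma 3.58.1 with quality weights, and the filter to a total of 1 count or a mean of 50 counts. Further fits left out KO library 8, the 5 libraries with choroid plexus RNA, or each library in turn. Leaving out all 6 of those libraries, and regressing out the library total, were added after seeing the data. The members and lists were chosen with earlier results of these data known. Every measured member is named; of the other lineage lists, the 2 genes with the smallest p in each list and direction; and the 10 and 5 genes outside all lists most like the members, if their mean reached 1 CPM. Some genes that these lists and rules name are not reported here.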

Additional observations from a re-analysis of the deposited data

How the results depend on the processing

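No paired analysis was possible because no replicate number occurs in both genotypes. Members called stayed at 0 in each of the 7 alternative fits and each of the 23 fits without 1 library, with a lowest adjusted p of 0.318 (Nkx6-2, limma voom). At an unadjusted p below 0.05 there was 1 member without WT library 3 (4.62% of all genes) and 1 without WT library 15 (8.07%), and 0 in the other fits. The correlation of Enpp6 with Mog kept its direction and its side of the threshold in the settings that pooled the genotypes. Over all genes DESeq2 called 4 and limma voom 5, a mean of 50 counts as the minimum gave 1, and leaving out the 5 libraries with choroid plexus RNA gave 1; the cause was not tested.

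The direction of the members did not hold. The median member was -0.11 without KO library 16 and 0.032 without KO library 22, and 15 to 31 of 37 were lower in KO in fits without 1 library, against 8 with limma voom, 19 without the 5 choroid libraries and 14 without those and KO library 8. Of 37 members, 19 kept their sign in the 23 fits without 1 library and 11 in every fit. With limma voom and quality weights the log2 fold changes that reversed were Sox10 0.062, Nkx2-2 -0.06, Bcas1 0.034, Mbp 0.01, Mog 0.10, Mag 0.057, Cnp 0.06, Cldn11 0.017, Opalin 0.10, Ermn 0.023, Mal 0.0063, Plekhb1 0.064, Tspan2 0.022, Gjc3 0.069, Gpr37 0.001, Ugt8a 0.014, Gal3st1 0.0045, Car2 0.066 and Trf 0.13. Without the 5 libraries with choroid plexus RNA they were Sox10 0.048, Cnp 0.014, Opalin 0.027, Plekhb1 0.013, Tspan2 0.025, Gjc3 0.051, Ugt8a 0.0059 and Apod -0.043. Without these and KO library 8 they were Sox10 0.05, Nkx2-2 -0.062, Bcas1 0.0081, Mog 0.036, Mag 0.0078, Cnp 0.019, Opalin 0.093, Ermn 0.023, Mal 0.0079, Plekhb1 0.017, Tspan2 0.032, Gjc3 0.073, Ugt8a 0.027, Car2 0.021, Trf 0.0046, Apod -0.055 and Klk6 -0.046. Over the fits without 1 library the members that changed sign ran as follows: Olig1 -0.037 to 0.06, Olig2 -0.055 to 0.067, Sox10 -0.087 to 0.045, Nkx2-2 -0.15 to 0.14, Enpp6 -0.085 to 0.072, Mog -0.11 to 0.036, Mag -0.11 to 0.025, Cnp -0.11 to 0.043, Opalin -0.19 to 0.07, Plekhb1 -0.067 to 0.035, Tspan2 -0.11 to 0.0065, Gjc3 -0.079 to 0.037, Gal3st1 -0.11 to 0.011, Aspa -0.054 to 0.10, Qdpr -0.056 to 0.063, Trf -0.073 to 0.087, Apod -0.057 to 0.12 and Klk6 -0.029 to 0.36. The cause of these reversals was not tested, and none of the values was called. Of the members Klk6 had the fewest counts, 8 to 88 per library. Where a mean of 50 counts was required, 36 members were tested.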

Other observations

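Outside every list, the 10 genes that followed the myelin members most closely over the 23 libraries, with genotype means removed, were Prr18 (r = 0.96), Sept4 (0.96), Gatm (0.95), Frmd8 (0.95), Ttyh2 (0.94), Litaf (0.94), Rab31 (0.94), Csrp1 (0.93), Prr5l (0.93) and Carhsp1 (0.93). At r of 0.925 and above they lie among 0.196% of all genes tested, a set that includes the members themselves. Gatm encodes the enzyme of the first step of creatine synthesis, Sept4 a septin of the cytoskeleton and Rab31 a small GTPase of vesicle traffic. Their mean levels ran from 12.4 CPM for Prr5l to 220 CPM for Csrp1, and their log2 fold changes between genotypes from -0.097 (SE 0.14) for Litaf to 0.018 (SE 0.11) for Sept4, with edgeR adjusted p of 0.861 to 0.994. Without KO library 8 the values of r lay between 0.93 and 0.97. These correlations over libraries carry no test, and the part of depth or tissue make-up in them was not tested.

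Among the genes most like the mean of Pdgfra and Cspg4 were Mgme1, a nuclease of mitochondrial DNA (r = 0.80), Plcd4 (0.79), Aldh9a1 (0.77) and Tent5a (0.77). Without KO library 8 the last 2 were at 0.66. The precursor mean itself joins 2 genes with r = 0.0048 between them.

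Bmp4, whose antisense partner could not be matched, is a signalling protein in the list of newly formed cells. It ranged from 0.648 through 1.07 to 7.39 CPM in WT and from 0.771 through 2.01 to 6.66 CPM in KO, with a log2 fold change of 0.35 (SE 0.42) and r = 0.14 with the myelin members. Gm15222, an antisense gene within Bmp4 that was not taken for Bmp4os, had 5 counts in total over the 23 libraries.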
